A study of Mus musculus with 10 samples.

Results

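The immunoglobulin genes were taken as the rows of the gene table whose biotype was IG_C_gene, IG_V_gene, IG_J_gene or IG_D_gene. They numbered 264 of 55952 genes, made up of 13 constant (C), 218 variable (V), 14 joining (J) and 19 diversity (D) genes. The heavy chain locus on chromosome 12 held 8 constant, 113 variable, 4 joining and 19 diversity genes. The kappa light chain locus on chromosome 6 held 1 constant, 102 variable and 5 joining genes. The lambda light chain locus on chromosome 16 held 4 constant, 3 variable and 5 joining genes. Variable pseudogenes (158) and other immunoglobulin pseudogenes did not meet the rule.

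An antibody is built of paired heavy and light chains. Each B cell joins a variable, a joining and, in the heavy chain, a diversity gene into a single exon, and that exon is spliced to a constant gene. Naive B cells carry the mu and delta constant genes (Ighm for IgM, Ighd for IgD), and class switching later replaces them with a gamma, alpha or epsilon gene (IgG, IgA, IgE). Plasma cells, the secreting stage, hold very large amounts of immunoglobulin mRNA. In the kidney such cells are normally sparse, and IgA made near epithelia is carried across them by the polymeric immunoglobulin receptor, Pigr.

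RNA of C57BL/6 mouse kidney was compared by bulk RNA sequencing between mice kept for 30 days at 400 m (control, 5 libraries) and mice kept for 30 days at 4200 m (hypoxia, 5 libraries). No allele or other treatment is named for either group, and the sources used here give neither sex nor age. Nothing in the labels says that the samples of a group are different mice, and p-values then cover only the spread between these samples. Each altitude had its own group, so altitude and anything else that differed between the places of housing cannot be told apart. The protocol text names retinas although every sample is labelled kidney; 8 kidney tubule genes summed to 25329 to 31576 FPKM in the controls.

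Levels are in FPKM, a count of fragments corrected for gene length and sequencing depth. The table allowed whole reads to be recovered, and the libraries held 16561672 to 17845464 reads assigned to genes. For a variable gene of 350 bases, 1 read was worth 0.157 to 0.174 FPKM. Hypoxia replicates 4 and 5 stood apart from the rest of their group and are given separately. In replicate 4, 8 adrenal cortex genes summed to 739 FPKM and 9 fat genes to 679 FPKM; the highest sums among controls and hypoxia replicates 1 to 3 were 31.03 and 209 FPKM. In replicate 5, 20 B cell genes summed to 688 FPKM, 12 T cell genes to 172 FPKM and 6 genes of lymphoid stroma to 50.7 FPKM, where the same 8 libraries reached no more than 8.11, 8.55 and 0.355 FPKM. The main comparison therefore set hypoxia replicates 1 to 3 against the 5 controls. In hypoxia replicate 3 the kidney tubule genes summed to 10864 FPKM, below the 21909 to 25120 FPKM of replicates 1 and 2. That was the lowest sum of all 10 libraries, below replicates 4 (12385 FPKM) and 5 (13942 FPKM) too. Replicate 3 was kept in the main comparison.

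The constant gene names the isotype, so the start of the first constant exon is shown first for IgM, the main isotype of controls, and for the genes of IgA and the kappa chain, which rose most in FPKM (GRCm38 coding sequence of the GENCODE M21 annotation, 90 bases each, on the gene's own strand). For Ighm they lie at chr12:113422641-113422730 (minus strand), for Igha at chr12:113260147-113260236 (minus strand) and for Igkc, the kappa constant gene, at chr6:70726435-70726524 (plus strand).
Ighm: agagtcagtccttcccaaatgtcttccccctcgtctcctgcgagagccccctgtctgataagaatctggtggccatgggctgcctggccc
Igha: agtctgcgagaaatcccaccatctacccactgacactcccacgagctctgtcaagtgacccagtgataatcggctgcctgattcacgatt
Igkc: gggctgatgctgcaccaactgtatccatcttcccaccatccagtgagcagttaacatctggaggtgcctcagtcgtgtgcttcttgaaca
The IgG genes are copies of one another, and reads of similar genes can be shared or lost in counting. Capitals in the next sequences mark the positions at which the 4 IgG genes were not all the same, 29 of the 90 bases. Over the coding sequence of exons 1 to 4 Ighg2b and Ighg2c were 85.5% identical, and every other pair of IgG genes was 74.0% to 76.0% identical. The shown bases, all on the minus strand, lie at chr12:113330434-113330523 (Ighg1), chr12:113307844-113307933 (Ighg2b), chr12:113288843-113288932 (Ighg2c) and chr12:113361143-113361232 (Ighg3).
Ighg1: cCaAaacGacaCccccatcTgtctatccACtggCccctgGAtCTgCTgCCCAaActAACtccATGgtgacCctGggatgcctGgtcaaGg
Ighg2b: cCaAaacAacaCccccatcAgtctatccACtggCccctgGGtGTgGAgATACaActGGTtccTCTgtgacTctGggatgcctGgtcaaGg
Ighg2c: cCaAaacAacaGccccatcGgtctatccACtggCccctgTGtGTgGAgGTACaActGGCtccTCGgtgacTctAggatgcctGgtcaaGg
Ighg3: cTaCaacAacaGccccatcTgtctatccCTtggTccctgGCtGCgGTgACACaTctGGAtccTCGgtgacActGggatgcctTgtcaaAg
The variable exons of the 4 variable genes with the largest increases formed 2 near-identical pairs, with capitals at the bases where the members of a pair differ. Iglv1 and Iglv2 differed at 9 of 305 bases (97.0% identical), and their longest shared run was 104 bases. Igkv1-110 and Igkv1-117 differed at 10 of 313 bases (96.8% identical), with a longest shared run of 142 bases. The sources used here do not say how reads shared by a pair were counted, so the levels of the single genes in a pair are uncertain. Their first 300 bases are shown, at chr16:19085022-19085321 and chr16:19260406-19260705 (minus strand) and at chr6:68270955-68271254 and chr6:68121515-68121814 (plus strand).
Iglv1: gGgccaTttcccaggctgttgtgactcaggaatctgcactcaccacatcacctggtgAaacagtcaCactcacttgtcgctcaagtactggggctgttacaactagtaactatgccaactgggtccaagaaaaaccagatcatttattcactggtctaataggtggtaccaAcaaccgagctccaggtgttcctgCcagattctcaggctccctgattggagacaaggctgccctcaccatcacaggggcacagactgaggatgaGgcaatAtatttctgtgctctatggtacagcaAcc
Iglv2: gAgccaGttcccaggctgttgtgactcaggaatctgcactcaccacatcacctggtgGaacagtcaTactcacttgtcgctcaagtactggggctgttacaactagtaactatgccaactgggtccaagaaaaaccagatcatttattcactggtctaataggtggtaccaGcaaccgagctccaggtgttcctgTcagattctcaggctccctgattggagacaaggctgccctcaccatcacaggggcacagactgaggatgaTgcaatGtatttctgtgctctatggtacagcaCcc
Igkv1-110: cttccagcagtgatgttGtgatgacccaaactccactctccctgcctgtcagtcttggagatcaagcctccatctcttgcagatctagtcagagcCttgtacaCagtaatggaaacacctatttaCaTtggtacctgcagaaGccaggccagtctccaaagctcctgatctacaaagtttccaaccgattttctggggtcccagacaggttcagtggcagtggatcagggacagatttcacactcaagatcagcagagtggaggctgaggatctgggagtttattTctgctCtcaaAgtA
Igkv1-117: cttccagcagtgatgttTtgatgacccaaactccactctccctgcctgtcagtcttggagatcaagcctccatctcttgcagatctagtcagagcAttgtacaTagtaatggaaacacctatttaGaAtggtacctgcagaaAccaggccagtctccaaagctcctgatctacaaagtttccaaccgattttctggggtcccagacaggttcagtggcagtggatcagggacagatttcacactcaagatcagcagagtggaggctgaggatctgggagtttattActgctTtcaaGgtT

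Immunoglobulin transcripts were scarce in every control kidney and more abundant in every hypoxia kidney. All 264 genes together held 12.3, 14.2, 10.02, 14.9 and 13.6 FPKM in controls 1 to 5. The same sum was 122, 145 and 177 FPKM in hypoxia replicates 1 to 3, 888 FPKM in replicate 4 and 9522 FPKM in replicate 5. The highest control was thus below the lowest hypoxia library, and the means of the 5 controls (13.0 ± 1.93 FPKM, SD, n = 5) and of hypoxia replicates 1 to 3 (148 ± 27.4 FPKM, SD, n = 3) stood 11.4-fold apart. The sums include joining genes, which are too short to give usable levels. These held 0 to 7.10 FPKM in controls and 3.74 to 11.3 FPKM in hypoxia replicates 1 to 3. Constant genes alone averaged 6.85 and 76.5 FPKM, 11.2-fold apart. In reads, the members took 134 to 223 in each control, 1492, 1782 and 2215 in hypoxia replicates 1 to 3, 10644 in replicate 4 and 122847 in replicate 5. In bulk RNA, more cells that make immunoglobulin, more RNA per such cell and other tissue in a sample cannot be told apart. Replicates 4 and 5 also held the high sums of other gene lists given above, and the part of those differences here was not tested.

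Few of these genes could be tested in the controls' range. Of the 264 members, 34 had no read in any of the 10 libraries, 209 had no read in any control, and 109 had reads in hypoxia replicates 1 to 3 and in no control. In the reverse direction, 6 members had reads in controls and in none of hypoxia replicates 1 to 3. The shares of all genes with such one-sided reads were not counted. Requiring a mean of 0.5 FPKM or more in the 8 libraries left 25 members, and 20 of them reached it only through the hypoxia libraries. With limma on log2(FPKM + 0.5) and Benjamini-Hochberg adjustment over all 14724 genes tested, 15 of the 25 were higher in hypoxia (6 constant and 9 variable genes), 0 were lower and 10 did not pass an adjusted p of 0.05. Over all genes tested 4.53% were called higher and 7.75% lower (12.3% called in all); since the filter itself favoured members that were high in hypoxia, the members' count cannot be read against that share as support. Without hypoxia replicate 2, 8 of 19 tested members were called higher, beside 3.59% of all genes in that fit. Scaling moved the balance over all genes, from 667 higher and 1141 lower with the values as deposited to 845 and 917 when scaled to reads outside the immunoglobulin genes and to 1100 and 977 with voom on recovered reads; the members' calls were 15, 15 and 16 higher and 0 lower. Without the FPKM filter, 164 members had at least 1 read in the 8 libraries. Of these, 38 were called higher (6 constant and 32 variable genes) and 0 lower, where 1.45% of 29160 genes were called higher. But 109 of the 164 had reads only in hypoxia replicates 1 to 3, so this count cannot be read against that share either. In 45 of those 164 members every value of hypoxia replicates 1 to 3 lay above every control value, against 6.32% of all genes with a read. For a member with no control read, 1 read in each of hypoxia replicates 1 to 3 was enough. This contrast is therefore partly built in. With all 5 hypoxia libraries, 19 of 159 tested members were called higher and 0 lower (3.66% of 15264 genes called higher, 7.79% lower and 11.5% in all), and 12 members were called in both fits. Without hypoxia replicate 4 that fit called 5 of 158 members, near the 1.92% of all genes called higher. Without any 1 of the controls it called 4 to 8 of 163, beside 1.44% to 2.51% of all genes. In these fits, too, the filter favoured members high in hypoxia: 159 were tested with all 10 libraries and 52 without hypoxia replicate 5. Their counts cannot be read against those shares as support either.

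IgM, the isotype of naive B cells, carried most of the heavy constant transcript in controls and differed little from them in hypoxia replicates 1 and 2. Ighm stood at 3.64, 5.39, 2.71, 2.54 and 3.73 FPKM in controls 1 to 5 and at 4.75, 3.53 and 12.1 FPKM in hypoxia replicates 1 to 3. The groups overlapped, since hypoxia replicates 1 and 2 lay within the control range and only replicate 3 was above it. The log2 difference was 0.69 ± 0.36 (SE) and did not pass the test (limma, adjusted p = 0.246). Ighd, the delta gene expressed beside mu in naive B cells, lay at 0.0950 to 0.513 FPKM in controls and at 0.464 to 0.952 FPKM in hypoxia replicates 1 to 3. It was below the filter in this comparison and was not called with all 10 libraries (limma, adjusted p = 0.315). In controls the heavy variable genes summed to 0.158 to 1.41 FPKM, beside 3.05 to 5.95 FPKM of the heavy constant genes. In hypoxia replicates 1 to 3 these sums were 19.7 to 32.5 and 19.4 to 31.8 FPKM. How far the Ighm of controls came with a joined variable exon was not tested.

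The switched isotypes were almost absent from control kidneys and present in every hypoxia kidney. Igha, the constant gene of IgA, stood at 0, 0.0228, 0.112, 0 and 0.0226 FPKM in controls 1 to 5 and at 7.33, 8.34 and 9.82 FPKM in hypoxia replicates 1 to 3. No value overlapped: the 5 controls shared 7 reads and the 3 hypoxia libraries held 1196, a ratio of 274 per library size with an exact 95% counting interval of 133 to 683. Igha rose by 4.08 ± 0.13 (SE; limma, adjusted p = 2.05e-06) on the scale of log2(FPKM + 0.5), which compresses the change of a gene near 0. It met the filter only through the hypoxia libraries, so this call cannot be read as support.

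Of the 4 IgG genes, 3 were near 1 FPKM or higher in hypoxia. Ighg2c, the C57BL/6 form of the IgG2a/c gene, had 0 reads in all 5 controls and stood at 2.71, 3.86 and 5.94 FPKM in hypoxia replicates 1 to 3. It was at least 156-fold higher when the controls are set to 3 reads over the group, and its log2 rise was 3.16 ± 0.21 (SE; limma, adjusted p = 0.000132). Ighg2b, the IgG2b gene, had 3 reads in all controls together, at 0, 0, 0, 0.0205 and 0.0449 FPKM, and stood at 3.34, 2.96 and 2.09 FPKM in hypoxia replicates 1 to 3. Its ratio was 212 (exact 95% counting interval 72.1 to 1034), and its log2 rise was 2.67 ± 0.17 (SE; limma, adjusted p = 0.000129). For both genes the groups were far apart and every fit that left out 1 of the 8 libraries kept the call. Both met the filter only through the hypoxia libraries, so these calls cannot be read as support.

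Ighg1, the IgG1 gene, had 1 read over the 5 controls and stood at 0.748, 1.53 and 0.698 FPKM in hypoxia replicates 1 to 3, a ratio of 220 (exact 95% counting interval 38.8 to 8742). Its mean over the 8 libraries missed the filter. It was called higher without the filter (limma, adjusted p = 0.00491) and with all 10 libraries (limma, adjusted p = 0.0223). Ighg3, the IgG3 gene, had 0 reads in controls and 1, 0 and 8 reads in hypoxia replicates 1 to 3, and did not pass the test without a filter (limma, adjusted p = 0.393). Ighe, the IgE gene, had 0 reads in those 8 libraries and in hypoxia replicate 4, and 3 reads in replicate 5.

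**Figure D1:**
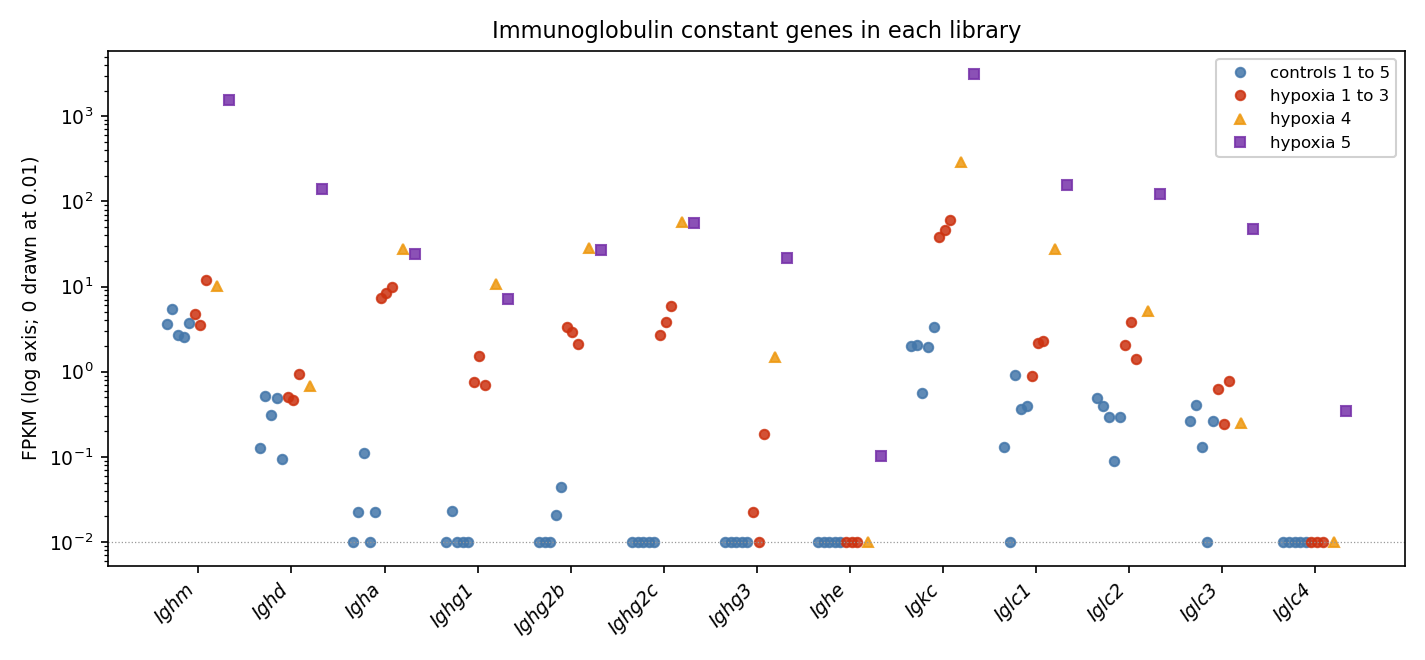
FPKM of the 13 constant genes (log axis, values of 0 drawn at 0.01) in the 5 controls (blue circles), hypoxia replicates 1 to 3 (red circles), replicate 4 (orange triangle) and replicate 5 (purple square). Igha, Ighg2b, Ighg2c and Igkc show no overlap between blue and red, whereas Ighm in hypoxia replicates 1 and 2 (4.75 and 3.53 FPKM) lies within the controls.

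The makeup of the heavy constant transcripts differed accordingly. IgM held 83.2% to 96.7% of the summed FPKM of the 8 heavy constant genes in controls, and 24.5%, 17.1% and 38.1% in hypoxia replicates 1 to 3. The switched isotypes together (IgG, IgA and IgE) held 0% to 3.55% in controls, where they rested on 0 to 5 reads a library, and 72.9%, 80.7% and 58.9% in hypoxia replicates 1 to 3. The 2 switched classes were of similar size there: IgA held 37.8%, 40.3% and 30.9%, and IgG held 35.1%, 40.4% and 28.1%. Hypoxia replicate 3 had the lowest switched share of the 3 while its summed switched FPKM was the highest, 18.7 FPKM against 14.2 and 16.7 FPKM, since its Ighm was higher too. These shares were compared as values, without a test.

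Within IgG the leading gene was not the same in every library. Ighg2b held 49.0% of the summed IgG FPKM in hypoxia replicate 1 and Ighg2c 39.7%. In replicates 2 and 3 the order was the other way, with Ighg2c at 46.2% and 66.6% and Ighg2b at 35.4% and 23.5%. Ighg1 held 10.96%, 18.3% and 7.83% in hypoxia replicates 1 to 3.

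**Figure D2:**
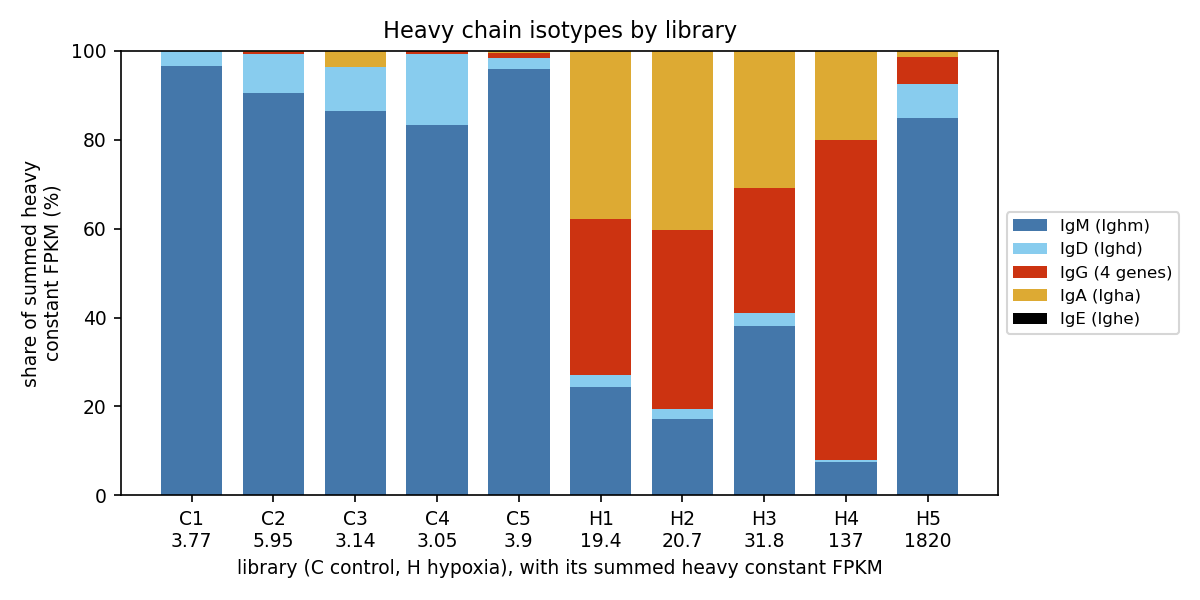
Share of the summed heavy constant FPKM (%) held by each isotype in each library, with the sum itself under the library name. IgM fills 83.2% to 96.7% of the 5 control bars, IgG and IgA together fill 58.9% to 80.7% of the bars of hypoxia replicates 1 to 3 and 92.1% of replicate 4, and replicate 5 returns to 84.9% IgM.

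Light chain transcripts were higher as well, mainly kappa. Igkc stood at 2.02, 2.06, 0.559, 1.97 and 3.39 FPKM in controls 1 to 5 and at 37.7, 45.6 and 60.0 FPKM in hypoxia replicates 1 to 3. The lowest of these hypoxia values was over the highest control by a wide margin, the ratio of the groups was 23.9 (exact 95% counting interval 19.3 to 29.9), and the log2 rise was 4.36 ± 0.36 (SE; limma, adjusted p = 0.000482). Igkc was 1 of only 5 tested members whose control mean alone met the filter.

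The lambda constant genes were lower in level than Igkc in every library except control 3. Iglc2 stood at 0.488, 0.398, 0.292, 0.0899 and 0.295 FPKM in controls 1 to 5 and at 2.05, 3.87 and 1.43 FPKM in hypoxia replicates 1 to 3 (log2 rise 1.80 ± 0.27, SE; limma, adjusted p = 0.00509). Iglc1 stood at 0 to 0.918 FPKM in controls and at 0.880, 2.18 and 2.31 FPKM in hypoxia replicates 1 to 3, so that control 3 lay above hypoxia replicate 1. Its log2 difference of 1.43 ± 0.36 (SE) passed the test narrowly (limma, adjusted p = 0.0341) and in 3 of the 8 fits that left out 1 library, with adjusted p = 0.124 without hypoxia replicate 3. Iglc3, 96.2% identical to Iglc2 over its coding sequence, lay at 0 to 0.404 FPKM in controls and 0.244 to 0.774 FPKM in hypoxia replicates 1 to 3, below the filter. Iglc4 had 0 reads in those 8 libraries and in hypoxia replicate 4.

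Lambda made up 8.62%, 12.1% and 7.003% of the summed light constant FPKM in hypoxia replicates 1 to 3. In controls it made up 18.8% to 70.6%, but there it rested on 4 to 11 lambda reads a library. Summed light constant FPKM was 2.13, 2.51 and 2.03 times the heavy sum in hypoxia replicates 1 to 3 and 0.481 to 1.12 times in controls, so the groups did not overlap in this ratio.

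Variable reads were spread over many genes of all 3 loci. Variable reads numbered 11, 10, 13, 16 and 33 in controls 1 to 5 and 324, 419 and 485 in hypoxia replicates 1 to 3. At least 1 read was found for 6, 8, 6, 12 and 19 variable genes in the controls and for 84, 92 and 99 in hypoxia replicates 1 to 3. Since more reads uncover more genes, every library was also thinned to 10 variable reads: 5.46 to 8.43 genes were then expected in controls and 9.19, 9.18 and 8.91 in hypoxia replicates 1 to 3. Each hypoxia library thus stood slightly above each control at equal depth, and 10 reads resolve little more.

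Heavy, kappa and lambda variable genes took 36.3% to 41.9%, 50.6% to 52.4% and 5.77% to 13.1% of the variable reads in hypoxia replicates 1 to 3. The Ighv1 family, with 53 of the 113 heavy variable genes, took 24.1%, 21.002% and 30.9% of all variable reads, heavy and light. Among heavy variable reads alone it held 78 of 127, 88 of 152 and 150 of 203. The Igkv1 family took 8.02%, 5.97% and 18.1% of all variable reads. Along the heavy locus, the 56 variable genes nearer the constant genes took 39.4%, 38.8% and 35.5% of the heavy variable reads, and the 57 farther ones took the rest.

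The libraries of the hypoxia group shared part of their variable genes. Of the 138 variable genes read in any of hypoxia replicates 1 to 3, 48 were read in all 3, 41 in 2 and 49 in only 1. With 3 reads in each as the limit, 15 were present in all 3. In controls 39 variable genes were read in at least 1 library and 0 in all 5. Of those 39, 34 were also read in hypoxia replicates 1 to 3. With no read in any control, 28 variable genes were read in all 5 hypoxia libraries, 17 heavy and 11 kappa. Replicate 5 read 200 of the 218 variable genes and so set little limit here. The share of all genes that met this rule was not counted.

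**Figure D3:**
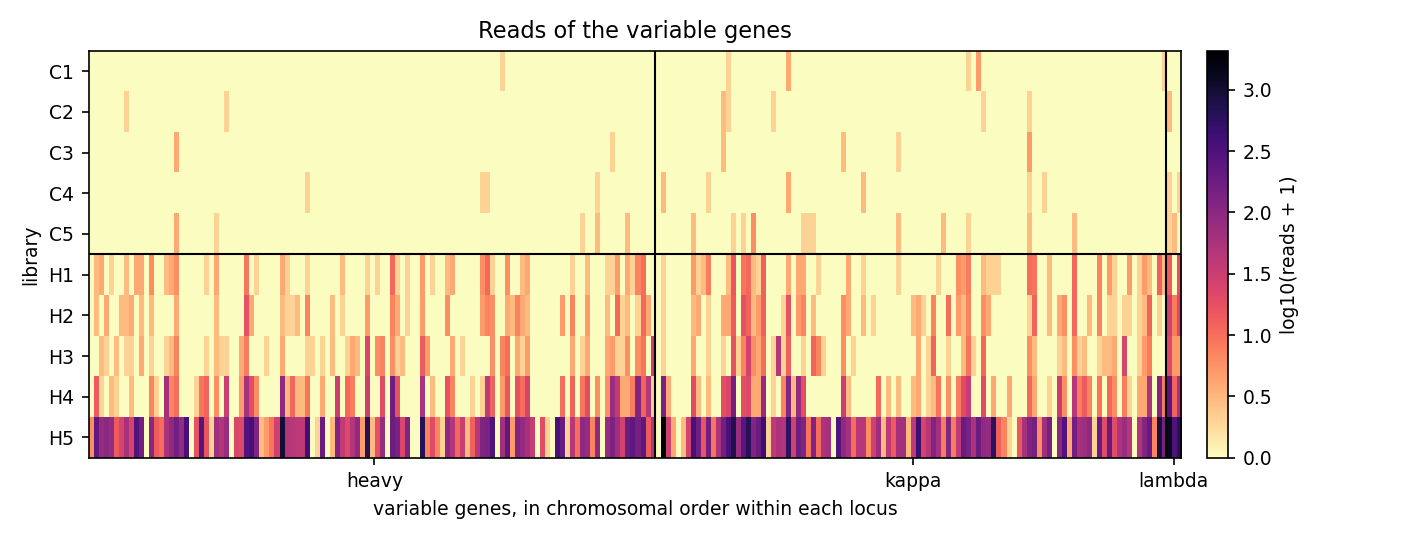
Reads of each of the 218 variable genes, as log10(reads + 1), with a row for each library and the genes in chromosomal order within the heavy, kappa and lambda loci. The 5 control rows are nearly empty (10 to 33 reads each), and the reads of hypoxia replicates 1 to 3 lie scattered along all 3 loci.

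The highest single variable genes in hypoxia were of lambda and kappa. All 12 variable genes tested met the filter only through the hypoxia libraries, so their calls cannot be read as support. Iglv1 stood at 0, 0.312, 0, 0.141 and 0.154 FPKM in controls 1 to 5 and at 1.90, 3.66 and 2.98 FPKM in hypoxia replicates 1 to 3 (log2 rise 2.42 ± 0.23, SE; limma, adjusted p = 0.000681). Iglv2, its near copy, had 1 read in control 4 and none in the other controls, and stood at 2.65, 3.31 and 0.637 FPKM in hypoxia replicates 1 to 3 (log2 rise 2.18 ± 0.36, SE; limma, adjusted p = 0.00715). The pair thus lay above all controls in all 3 libraries, but Iglv2 was lower in replicate 3, with 4 reads against 20 of Iglv1.

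The kappa pair reached similar levels in replicates 1 and 2. Igkv1-110 had 0 reads in controls and stood at 1.42, 1.51 and 3.64 FPKM in hypoxia replicates 1 to 3, at least 24.6-fold higher against 3 reads over the controls (log2 rise 2.33 ± 0.25, SE; limma, adjusted p = 0.00126). Igkv1-117 had 1 control read and stood at 2.12, 1.77 and 2.31 FPKM (log2 rise 2.28 ± 0.17, SE; limma, adjusted p = 0.000195). Both were above all controls in every hypoxia library.

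Igkv15-103 had 0 control reads and lay at 1.83, 1.76 and 1.40 FPKM in hypoxia replicates 1 to 3, at least 17.6-fold higher (log2 rise 2.11 ± 0.15, SE; limma, adjusted p = 0.000195). Ighv9-3, the 1 heavy variable gene among the 6 largest increases, had 0 control reads and lay at 1.30, 2.51 and 1.16 FPKM, at least 16.6-fold higher (log2 rise 2.06 ± 0.21, SE; limma, adjusted p = 0.00106). These were again without overlap. Igkv10-96, with 3 reads each in controls 1 and 4, lay at 0.477, 2.45 and 1.95 FPKM in hypoxia replicates 1 to 3 and overlapped the controls (0 to 0.499 FPKM). Its call (limma, adjusted p = 0.0412) held in 3 of the 7 fits that left out 1 library and still tested it.

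The variable genes with the most reads in controls were mostly other ones, each on a handful of reads. Igkv6-32 was the highest by mean level, at 0 to 0.651 FPKM over the 5 controls and at 1.40, 0.150 and 0.797 FPKM in hypoxia replicates 1 to 3. Igkv12-44 had 4 reads in control 1 and 0 in every other control and in hypoxia replicates 1 to 4. Ighv5-17, Igkv2-109, Igkv17-121 and Igkv4-68 had 3 to 6 reads over the 5 controls and 14, 9, 4 and 1 reads over hypoxia replicates 1 to 3. These genes lay under the filter and were not tested.

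No variable gene dominated any of hypoxia replicates 1 to 3. The leading gene was Iglv2 in replicate 1 (5.25% of variable reads, exact 95% interval 3.09% to 8.27%), Iglv1 in replicate 2 (6.21%, 4.09% to 8.96%) and Igkv1-99 in replicate 3 (9.48%, 7.03% to 12.5%). These intervals, like the others given for reads, cover counting error only. Igkv1-99 was read in only 1 of the 8 libraries compared, with 46 reads in hypoxia replicate 3, 0 in replicates 1 and 2 and 0 in every control. It did not pass the test (log2 difference 1.31 ± 0.81, SE; limma, adjusted p = 0.323). The inverse Simpson number, the count of equally used genes that would give the same concentration of reads, was 45.02, 45.2 and 33.6 in hypoxia replicates 1 to 3.

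**Figure D4:**
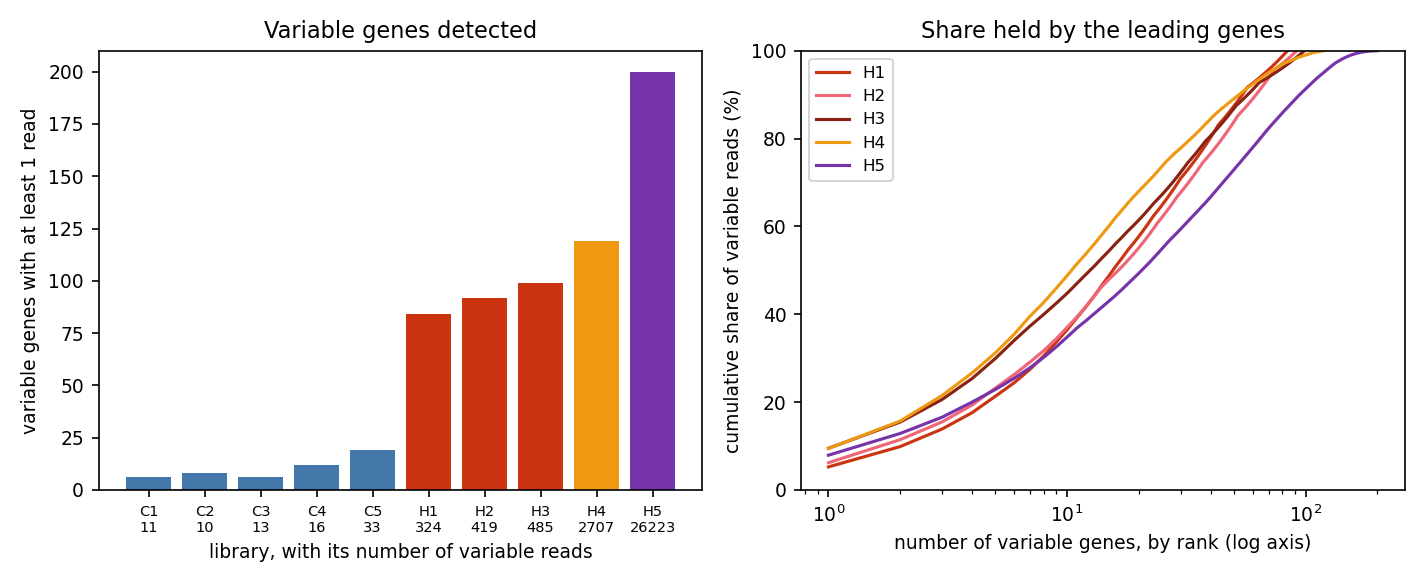
Left, variable genes with at least 1 read in each library, with its number of variable reads under the name (controls blue, hypoxia 1 to 3 red, 4 orange, 5 purple). Right, cumulative share of variable reads (%) against the number of genes by rank (log axis) in the hypoxia libraries; the first gene holds 5.25% to 9.48% in each.

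Joining and diversity genes are too short to give usable levels. The 14 joining genes are 38 to 100 bases long in the table, and the diversity genes 10 to 29 bases. Examples show how little sequence there is to match, at chr6:70723548-70723585 (Igkj4, plus strand) and, on the minus strand, chr12:113428514-113428567 (Ighj4), chr12:113482170-113482192 (Ighd1-1) and chr12:113430528-113430538 (Ighd4-1).
Igkj4: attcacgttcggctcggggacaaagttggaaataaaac
Ighj4: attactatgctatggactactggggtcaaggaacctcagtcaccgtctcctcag
Ighd1-1: tttattactacggtagtagctac
Ighd4-1: ctaactgggac
Joining reads summed to 3, 3, 4, 6 and 0 in controls 1 to 5 and to 10, 9 and 3 in hypoxia replicates 1 to 3, so that the groups overlapped. Tested joining genes numbered 6 and none passed the test (limma, adjusted p between 0.324 and 0.923). Igkj4 had 2 reads in control 2 and 1 read each in hypoxia replicates 1 and 3. No diversity gene had a read in the 8 libraries, and 4 of the 19 shared 9 reads in hypoxia replicate 5.

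Of the other genes of B and plasma cells, most did not pass the test or lay under the filter. The 20 B cell genes summed to 4.87 to 6.70 FPKM in controls and to 7.23, 7.50 and 8.11 FPKM in hypoxia replicates 1 to 3. Only 4 of them passed the filter, 0 passed the test, and their median log2 difference was 0.21, beside a median of -0.00046 over all genes tested. Cd79a, part of the B cell receptor, lay at 0.0413 to 0.502 FPKM in controls and 0.160 to 0.642 FPKM in hypoxia replicates 1 to 3. Ms4a1, the B cell surface protein CD20, lay at 0.0386 to 0.148 FPKM in controls and 0.107 to 0.123 FPKM in hypoxia replicates 1 to 3. Both overlapped between the groups. Of the 20, 3 lay higher in each of hypoxia replicates 1 to 3 than in every control and 0 lower, where 6.32% of all genes with a read lay higher. They were Pax5 (0 to 0.0408 FPKM in controls, 0.0560 to 0.0644 FPKM in hypoxia), Fcmr, an IgM receptor (0.0351 to 0.208 and 0.362 to 0.470 FPKM), and Cd37 (0.169 to 0.391 and 0.485 to 0.696 FPKM), chosen after their values were seen. All 3 lay under the filter; without it Fcmr had a limma adjusted p of 0.0497, Cd37 of 0.112 and Pax5 of 0.166. Ebf1 and Bach2, B cell transcription factors that other kidney cells may express too, were at 1.05 and 0.858 FPKM on average in controls and at 1.15 and 0.748 FPKM in hypoxia replicates 1 to 3, with limma adjusted p = 0.677 and 0.673.

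Of the 16 plasma cell genes 10 were tested, 2 were higher and 1 was lower (median log2 difference -0.11), beside 4.53% higher and 7.75% lower over all genes tested. Jchain, which joins IgA and IgM into polymers, was 1 of the 2: it stood at 0.214, 0.0968, 0.0237, 0.109 and 0.502 FPKM in controls 1 to 5 and at 3.04, 3.63 and 3.31 FPKM in hypoxia replicates 1 to 3. Its log2 rise of 2.51 ± 0.21 (SE; limma, adjusted p = 0.000368) came without overlap. Fkbp11, a protein-folding enzyme of the secretory pathway, was the other, at 0.660 ± 0.122 FPKM (SD, n = 5) in controls and 1.21 ± 0.0984 FPKM (SD, n = 3) in hypoxia (limma, adjusted p = 0.0270), and it held in 3 of the 8 fits that left out 1 library. Creld2, an endoplasmic reticulum stress protein that tubule cells express as well, fell from 29.8 ± 4.84 to 12.6 ± 3.31 FPKM (SD, n = 5 and n = 3; limma, adjusted p = 0.00412). Of the 16, 2 lay higher without overlap, beside 6.32% of all genes with a read, and 2 lay lower, Creld2 and Xbp1. Xbp1 lay at 47.7 to 67.0 FPKM in controls and 36.3 to 43.7 FPKM in hypoxia replicates 1 to 3 (limma, adjusted p = 0.0530). Mzb1, a chaperone of immunoglobulin assembly, overlapped between the groups, at 0.150 to 0.634 FPKM in controls and 0.188 to 0.576 FPKM in hypoxia replicates 1 to 3, and was not tested.

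Among 10 genes of immunoglobulin transport and Fc receptors, 9 were tested, 3 were higher and 0 lower (median log2 difference 0.49). The shares over all genes tested were 4.53% higher and 7.75% lower. Pigr stood at 35.9, 43.9, 54.8, 26.7 and 26.9 FPKM in controls 1 to 5 and at 76.3, 90.5 and 117 FPKM in hypoxia replicates 1 to 3 (log2 rise 1.35 ± 0.25, SE; limma, adjusted p = 0.0121). The groups did not overlap, and without hypoxia replicate 3 the adjusted p was 0.0512. Fcamr, a receptor for IgA and IgM, rose from 6.68 ± 1.14 to 12.3 ± 2.45 FPKM (SD, n = 5 and n = 3; limma, adjusted p = 0.0152). That call was lost without hypoxia replicate 1 (limma, adjusted p = 0.0654) and with all 10 libraries (0.120), where replicates 4 and 5 lay at 7.52 and 6.60 FPKM, within the control range of 4.90 to 8.07 FPKM. B2m, the partner of the neonatal Fc receptor and of MHC class I, rose from 265 ± 39.6 to 389 ± 56.2 FPKM (SD, n = 5 and n = 3; limma, adjusted p = 0.0281), and held in 3 of the 8 fits that left out 1 library.

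Of 13 homing and survival factors 6 were tested, with 1 higher and 1 lower (median log2 difference 0.15), beside 4.53% higher and 7.75% lower over all genes tested. Cxcl12, a chemokine that retains plasma cells in bone marrow, rose from 23.7 ± 5.36 to 41.8 ± 1.49 FPKM (SD, n = 5 and n = 3; limma, adjusted p = 0.0152). Without hypoxia replicate 1 its adjusted p was 0.0618 (limma), and replicate 4, at 26.1 FPKM, lay within the controls (17.3 to 30.9 FPKM). Ccl28, a chemokine that draws IgA plasma cells to mucosal tissue, fell from 2.72 ± 0.751 to 0.838 ± 0.289 FPKM (SD, n = 5 and n = 3; limma, adjusted p = 0.0102). These chemokines thus moved in opposite directions. Of 11 recombination and class switching genes 4 were tested (median log2 difference -0.05). Only Lig4, the ligase that also closes other DNA breaks, passed the test, from 2.79 to 1.95 FPKM (limma, adjusted p = 0.0353), in 2 of the 8 fits that left out 1 library. Rag2, of the recombinase, had 0 reads in the 8 libraries. Dntt, of the same list, had 1 to 7 reads in each control and 0 reads in hypoxia replicates 1 to 3. It lay under the filter, and without the filter its limma adjusted p was 0.198.

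**Figure D5:**
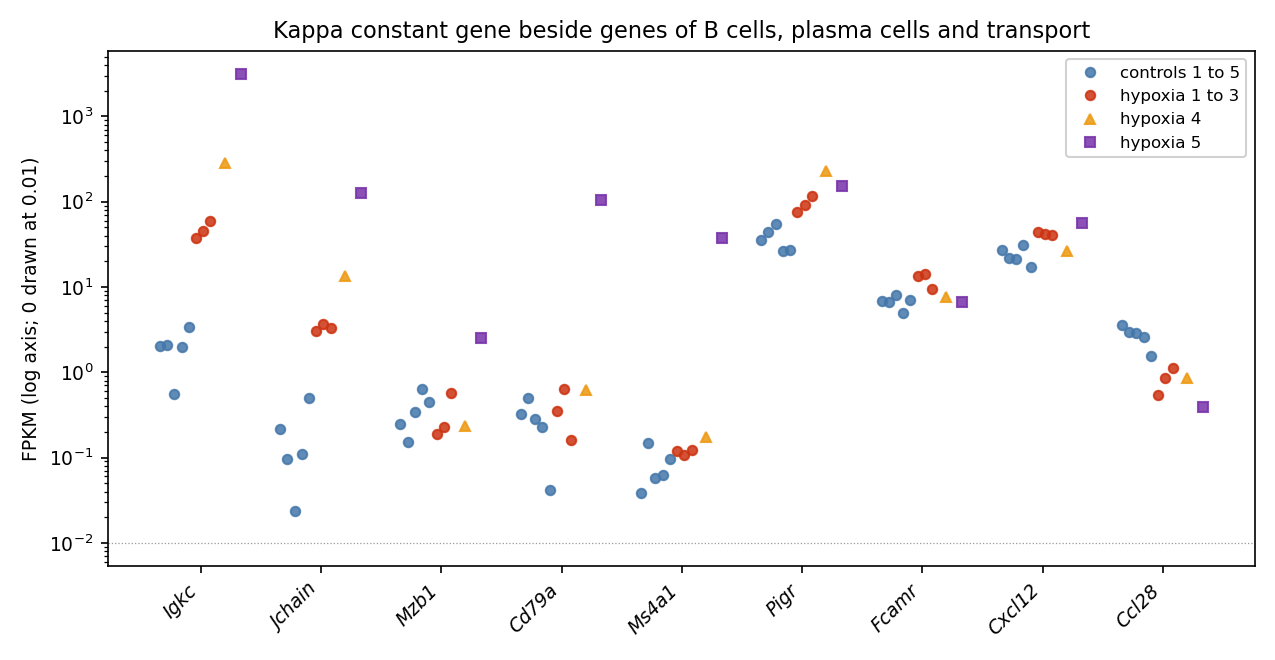
FPKM (log axis) of Igkc beside genes of plasma cells, B cells, transport and homing in the same libraries, with symbols as in the plot of constant genes. Igkc and Jchain separate the controls from hypoxia replicates 1 to 3, Cd79a, Ms4a1 and Mzb1 overlap between them and are highest in hypoxia replicate 5, and Ccl28 is lower in every hypoxia library.

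Markers of other leukocytes were compared in the same libraries, where 4.53% of all genes tested were called higher and 7.75% lower. Of 12 T cell genes 4 were tested and 0 passed (median log2 difference 0.56), with Trac at 1.69 ± 0.674 FPKM in controls (SD, n = 5) and 2.41 ± 0.394 FPKM in hypoxia replicates 1 to 3 (SD, n = 3). Trbc2, another T cell receptor constant gene, did not overlap, at 0.0795 to 0.957 FPKM in controls and 0.989 to 1.51 FPKM in hypoxia replicates 1 to 3 (log2 difference 0.84; limma, adjusted p = 0.127). It was 1 of 2 T cell genes that lay higher in all 3, with 0 lower, where 6.32% of all genes with a read lay higher. Of 9 macrophage genes 8 were tested and 0 passed (median 0.13). The 8 neutrophil genes summed to 0.439 to 2.69 FPKM in controls and to 3.61, 5.18 and 36.2 FPKM in hypoxia replicates 1 to 3, and 1 of the 3 tested was higher, S100a8 (limma, adjusted p = 0.0395), in 2 of the 8 fits that left out 1 library. Of genes of other tissues, 0 of 5 tested red blood cell and 0 of 2 adrenal cortex genes passed, and 1 gene each of pancreas (Cela1), fat (Cidea) and kidney tubule (Slc5a2) was lower, of 1, 8 and 8 tested. Hypoxia replicate 3 had the most neutrophil transcript of the 3 and the least kidney tubule transcript of all 10 libraries. Of the 3 it also had the most Ighm. The part of these differences in the immunoglobulin results was not tested. The neutrophil sums of replicates 1 and 2 were above every control as well.

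The libraries set apart differed from each other in isotype. Hypoxia replicate 4 held the same switched genes as replicates 1 to 3 at higher levels: Igkc stood at 286 FPKM, Ighg2c at 57.7, Ighg2b at 28.7, Igha at 27.4 and Ighg1 at 10.7 FPKM, while Ighm (10.2 FPKM) lay below that of replicate 3. Its switched share was 92.1%, with IgG at 72.0% and IgA at 20.05% of the heavy constant FPKM. IgG was thus well above IgA there, where the classes were about equal in replicates 1 to 3. Its leading variable gene was Iglv1, with 9.42% of 2707 variable reads, and its inverse Simpson number was 30.3. Its B cell genes summed to 10.1 FPKM, above the 7.23 to 8.11 FPKM of replicates 1 to 3, and Jchain stood at 13.4 FPKM.

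Hypoxia replicate 5 was dominated by IgM. Ighm stood at 1545 FPKM, Ighd at 139 FPKM and Igkc at 3117 FPKM, whereas its summed switched isotypes (135 FPKM) were close to those of replicate 4 (126 FPKM). IgM held 84.9% and the switched isotypes 7.44% of its heavy constant FPKM, near the 83.2% to 96.7% of IgM in controls. It was also the library with Cd79a at 106 FPKM and Ms4a1 at 37.1 FPKM, with the T cell and lymphoid stroma sums given above. Reads fell on 200 of the 218 variable genes, 47 of which were read in no other library, and the leading gene was Igkv1-135 with 7.91% of 26223 reads. Thinned to the 324 variable reads of replicate 1, it held an expected 104 variable genes, against 84.0, 86.6 and 85.4 in replicates 1 to 3 and 73.2 in replicate 4. Lambda made up 9.39% of its light constant FPKM and 10.4% of that of replicate 4, within the 7.003% to 12.1% of replicates 1 to 3.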

How the data were processed

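FPKM values of 55952 genes in 10 libraries were deposited by the authors in a single table, with gene names, coordinates, biotypes and, as an other unit, gene lengths in bases. Per the submitters' processing notes the aligner was HISAT2 2.0.5; the build they name is the human hg38. The coordinates of all 264 immunoglobulin genes were identical to those of a GRCm38 mouse annotation. The sources used here do not give the counting tool, its use of strand and of multiply matching reads, or the library size behind FPKM. FPKM times gene length fell on whole reads for 100% of the values (tolerance 0.05), which gave the reads printed; the implied library size was 0.949 to 1.10 times their sum.

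The treatment label gave the groups and the titles gave the replicate numbers. Genes whose mean reached 0.5 FPKM in the libraries of a fit entered limma 3.58.1 (R 4.3.3) as log2(FPKM + 0.5), with trend and robust settings, two-sided, hypoxia minus control, adjusted over all genes tested. Sums, isotype shares and the spread over variable genes were described per library, without a test. Folds against 0 control reads are bounds set at 3 reads over the 5 controls, ratios on few reads carry exact 95% intervals, and shares of variable reads carry exact binomial (Clopper-Pearson) intervals. Thinning was computed exactly.

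The members and gene lists were chosen with earlier results of these data known. The genes named were every constant gene, the 8 variable genes highest in controls, the 6 with the largest increases and the leading one of each library, up to 4 called members of each list or else its 2 highest, and Jchain, Mzb1, Cd79a, Ms4a1 and Pigr. Pax5, Fcmr, Cd37, Xbp1, Rag2 and Dntt were named in addition, after their values were seen. Alternatives covered pseudocount, filter, scaling, error model, a replicate block and the omission of each library. Sequences are the coding sequences of GENCODE M21 transcripts. Figures were drawn with matplotlib 3.10.9.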

Additional observations from a re-analysis of the deposited data

Results flagged for a closer look

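Hypoxia replicate 5 was far above the other 4 hypoxia libraries in most summed levels. In 14 of the sums the gap from it to the next library took more than 0.71 of the whole range of the group, the limit used for 5 libraries. Its summed FPKM was 9522 for all members, 5261 for constant, 3889 for variable, 339 for joining and 33.8 for diversity genes. By heavy isotype it stood at 1545 FPKM for IgM, 139 FPKM for IgD and 0.104 FPKM for IgE, and the heavy constant genes summed to 1820 FPKM. Its light constant genes stood at 3117 FPKM for kappa and 323 FPKM for lambda. Its variable genes summed to 1595 FPKM for heavy, 1974 FPKM for kappa and 319 FPKM for lambda. The summed IgA and IgG levels of replicate 5 did not stand apart in this way, because replicate 4 was as high or nearly so.

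Among the controls 3 sums had a library apart. Control 5 was highest in variable genes (5.30 FPKM against 2.38 FPKM in the next) and in kappa variable genes (3.42 FPKM against 1.59 FPKM). Control 3 was highest in Igha, with 0.112 FPKM from 5 reads against 0.0228 FPKM. In all 32 sums with a range were looked at, many of them sharing genes, and chance gives about 1 such library in 20.

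Variable pseudogenes, which the rule leaves out, had 65 reads in hypoxia replicate 5, 1 read in replicate 3 and 0 reads in every control.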

How the results depend on the processing

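For hypoxia replicates 1 to 3 against control, 1808 genes and 15 of 25 immunoglobulin genes were called, beside 4.53% of all genes called higher. Without the FPKM filter the counts were 1037 genes and 38 of 164 members, beside 1.45% of all genes called higher. A mean of at least 1 FPKM called 6 of 7 tested members, beside 4.98% of all genes called higher, and this filter too favours members that are high in hypoxia. With hypoxia replicate 4 added, 2724 genes and 25 of 52 members were called, beside 7.39% of all genes called higher. With replicate 5 added instead, 1053 genes and 5 of 158 members were called, beside 1.92%. Leaving out each library of the first comparison in turn gave 761 to 2076 genes and 8 to 16 members. Members tested there numbered 19 to 27, and 1.69% to 4.99% of all genes were called higher. With all 10 libraries, 1748 genes and 19 of 159 members were called, beside 3.66% of all genes called higher. Leaving out each library gave 824 to 2724 genes and 4 to 25 members. There 52 to 163 members were tested, and 1.44% to 7.39% of all genes were called higher. All of these fits tested members chosen partly by high hypoxia values. All members called in any of these fits were higher in hypoxia.

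Samples with the same replicate number did not deviate together (correlations of -0.077 to 0.086 over the 5 numbers), so the numbers were not taken to pair the samples. With the number as a replicate block the first comparison called 881 genes and 13 of 25 members, beside 1.89% of all genes called higher. The second called 999 genes and 12 of 159 members, beside 1.74%.

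Igha, Ighg2b, Ighg2c and Igkc were called under all 20 alternatives of the first comparison, with adjusted p up to 0.0220. These alternatives include the fits with hypoxia replicates 4 or 5 added. Of the 15 members called, only 1, Igkc, met the filter by its control mean. The others met it only through the hypoxia libraries, so their kept calls cannot be read as support. Iglc1 lost its call in 11 of 19, Igkv10-96 in 9 of 18 and Iglc2 in 2 of 20. Iglv1, Iglv2, Igkv1-110, Igkv1-117, Igkv15-103 and Ighv9-3 each lost it in 1, the fit with hypoxia replicate 5 added and replicate 4 left out (adjusted p of 0.0558 to 0.0728). Of these genes none changed direction under those alternatives; members under the filter were not compared in this way. Of the 9 variable genes called, 2 were called in all 8 fits that left out 1 library, since the others fell under the filter or lost the call in at least 1. The mean sums and the inverse Simpson numbers moved by less than 1 SD under each alternative run. Depth limits single variable genes: the 5 controls held 10 to 33 variable reads each.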
